A study of Drosophila melanogaster with 3 samples.

Results

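The irre cell recognition module of Drosophila melanogaster is a set of 4 genes, kirre, rst, sns and hbs, and the peaks of the insulator protein su(Hw) in and around these genes are described here. The genes were found by symbol in the Ensembl annotation (release 115) of genome release 6 (dm6), where they are 4 of 13986 protein-coding genes, and each was taken with 10 kb either side. These windows held 23 of the 6127 peak summits that the authors kept after thresholding by the irreproducible discovery rate (IDR), called thresholded summits below. The set was chosen by the high number of thresholded summits in kirre, so the counts, signals, ranks and positions of the summits are given as descriptions with no test.

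The peaks came from chromatin immunoprecipitation sequencing (ChIP-seq) of whole embryos aged 0 to 24 hours, males and females together. All 3 samples were biological replicates of 1 group, the strain SuHw-GFP, a stable transgenic line in which GFP is joined to the C terminus of su(Hw). Chromatin was sonicated to 200 to 800 bp and precipitated with anti-GFP per the sample descriptions, while their antibody entry gives su(Hw). Every sample carried the fusion protein, and no control was analysed here. Whole embryos hold all embryonic cell types and ages, so no peak can be assigned to muscle, eye, kidney or nerve cells. The authors deposited 1 peak list per replicate, 1 list called on the pooled replicates and the thresholded list, which holds the strongest 6127 of the 30000 pooled peaks by signal. Read depth is unknown.

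The 4 genes encode cell surface receptors of the immunoglobulin superfamily that bind each other between neighbouring cells. In embryonic muscle, kirre (kin of irre, also called Dumbfounded) and rst (roughest) act in the founder cells, while sns (sticks and stones) and hbs (hibris) act in the fusion-competent myoblasts that are drawn to them and fuse with them. Receptors of this module also form the filtration slits of nephrocytes and sort cells in the developing eye, as their relatives nephrin and Neph1 do in the vertebrate kidney. su(Hw) is a zinc finger protein best known from the gypsy retrotransposon, where its binding sites form an insulator that blocks communication between enhancers and promoters.

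The 4 genes differed in how many summits they carried, and their windows differed in length. The window of kirre held 20 thresholded summits, that of rst 3, that of hbs 3 and that of sns 0. Per length the order was another: 69.1 per Mb for rst (43436 bp), 59.1 per Mb for hbs (50739 bp), 48.3 per Mb for kirre (414149 bp) and 0 for sns (77603 bp), with only 3 summits behind each of the values for rst and hbs. The gene rst lies inside kirre on the opposite strand, and its 3 summits are also among the 20 of kirre. A thresholded summit in the gene or within 10 kb was thus found for 3 of the 4 members, where the share among all 13865 protein-coding genes of the 5 large chromosome arms was 73.1%.

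Sequences around the summits of kirre are shown first, because 9 of its 20 summits carried a close match to the 12-base su(Hw) consensus. Capitals mark the 12 bases that match with no more than 1 mismatch and, where it follows after 1 further base, the run TAGG. The strand printed is that of the match. Summits are numbered 1 to 20 along the X chromosome, each sequence covers 50 bp either side of the summit where not stated otherwise, and all were read from the dm6 genome. The first 5 carry TAGG after the match and include the strongest peak of the locus, number 16.
kirre 9, chrX:2801693-2801793, minus strand: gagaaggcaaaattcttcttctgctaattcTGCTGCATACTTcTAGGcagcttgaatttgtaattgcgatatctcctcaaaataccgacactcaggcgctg
kirre 11, chrX:2889576-2889676, plus strand: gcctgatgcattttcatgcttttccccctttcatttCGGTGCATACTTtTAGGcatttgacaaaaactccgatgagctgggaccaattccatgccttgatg
kirre 12, chrX:2905236-2905336, plus strand: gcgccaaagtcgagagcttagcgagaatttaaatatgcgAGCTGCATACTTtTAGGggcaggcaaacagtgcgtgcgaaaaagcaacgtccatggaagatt
kirre 16, chrX:2949310-2949410, plus strand: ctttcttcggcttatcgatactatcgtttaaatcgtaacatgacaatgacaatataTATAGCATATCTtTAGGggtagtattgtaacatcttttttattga
kirre 17, chrX:2957340-2957440, plus strand: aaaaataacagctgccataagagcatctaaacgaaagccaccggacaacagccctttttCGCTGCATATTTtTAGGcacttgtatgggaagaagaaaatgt

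The other 4 matches, with 1 mismatch each and no TAGG behind them, are shown to compare with these. Number 7 is printed over 147 bp, since the centre of its match lay 80.5 bp from the summit, beyond the edge of the shorter window.
kirre 4, chrX:2746714-2746814, minus strand: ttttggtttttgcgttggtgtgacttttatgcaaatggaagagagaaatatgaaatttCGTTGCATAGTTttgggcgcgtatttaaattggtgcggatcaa
kirre 5, chrX:2773660-2773760, minus strand: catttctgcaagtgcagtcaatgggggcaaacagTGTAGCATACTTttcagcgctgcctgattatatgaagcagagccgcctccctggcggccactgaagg
kirre 7, chrX:2787359-2787505, minus strand: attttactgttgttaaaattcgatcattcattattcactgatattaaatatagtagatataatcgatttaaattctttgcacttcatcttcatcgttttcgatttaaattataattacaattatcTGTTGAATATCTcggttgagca
kirre 18, chrX:3097194-3097294, plus strand: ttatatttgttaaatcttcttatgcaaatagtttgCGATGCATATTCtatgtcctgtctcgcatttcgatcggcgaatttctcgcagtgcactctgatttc

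Number 15, the second strongest peak of the locus, is shown because it had no such match: its best match had 2 mismatches and was centred 92.5 bp away, outside the stretch printed, so no letters are in capitals.
kirre 15, chrX:2947688-2947788, plus strand: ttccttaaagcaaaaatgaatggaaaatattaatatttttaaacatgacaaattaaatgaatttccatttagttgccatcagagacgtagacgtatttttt

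Of the 4 genes, kirre gave nearly all of the thresholded summits. The gene (FBgn0028369, X:2740384-3134532, plus strand) spans 394149 bp, and only 4 of the 13865 protein-coding genes of the large arms, CG17684, lovit, Pzl and Myo81F, are longer. Its 7 annotated transcripts splice over introns of up to 133764 bp, and exons cover 1.99% of it. The 20 thresholded summits of its window, 18 of them within the gene, amounted to 48.3 per Mb. The rest of the X chromosome held 44.8 per Mb, and the window held 1.89% of the 1056 thresholded summits of X in 1.76% of its length. The count at kirre therefore lay close to what its length would hold at the average density of X.

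Against other very long genes the density was on the high side. Across the 83 protein-coding genes over 100 kb, kirre included, the median was 22.1 per Mb with an interquartile range of 3.61 to 42.5 and a range of 0 to 111. Of these genes 16 were denser than kirre and 19 had no thresholded summit. Whether genes with few or no summits lie in repeat-rich sequence where reads map poorly was not tested. The median is therefore no measure of long genes in well-mapped sequence. The genes nearest to kirre in length held few. CG17684 (396036 bp) and DIP-lambda (379081 bp), an immunoglobulin-family surface protein gene, had 0. lovit (434041 bp) had 1, Ten-a (291517 bp), which encodes a teneurin of synapses, had 5 (16.1 per Mb), and bru3 (281494 bp), an RNA-binding protein gene, had 6 (19.9 per Mb). The genes nearest to kirre in density were shorter: klar with 47.4 per Mb, Sema1a with 46.7 and luna with 50.5.

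**Figure D1:**
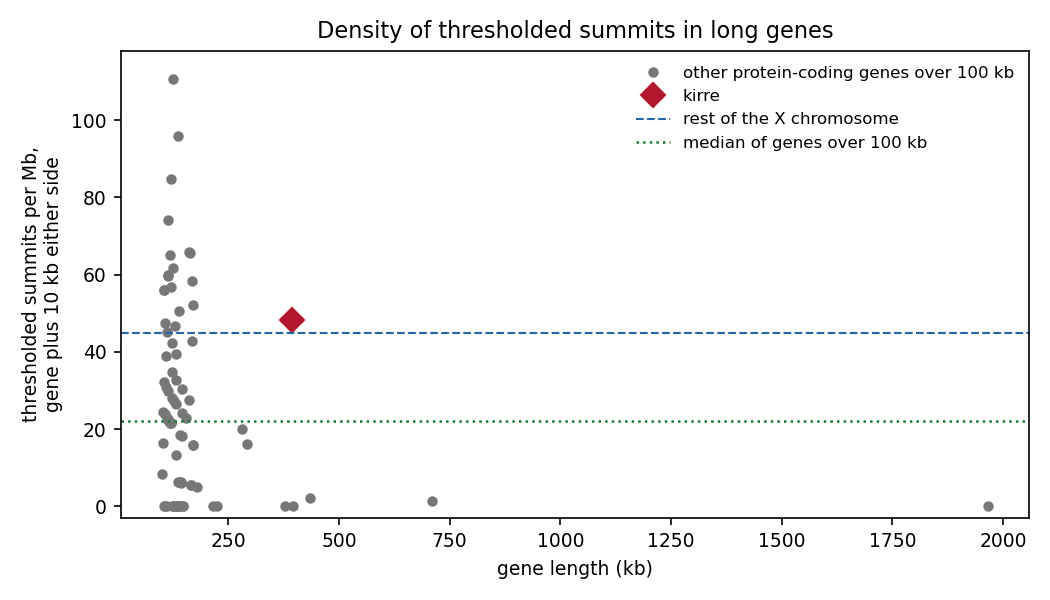
Length of each of the 83 protein-coding genes over 100 kb (x axis, kb) against its thresholded summits per Mb of gene plus 10 kb either side (y axis). Each grey point is a gene and the diamond is kirre at 48.3 per Mb, close to the dashed line for the rest of X (44.8) and above the dotted median (22.1), with other genes of similar length at or near 0.

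Replicate lists agreed on most of this locus. The kirre window held 111, 91 and 102 peaks in the lists of replicates 1, 2 and 3 (mean 101 ± 10.0, SD, n = 3), and 20, 21 and 16 of these were among the strongest 6127 of their own list (mean 19 ± 2.65, SD, n = 3). Replicate 3 had the fewest strong peaks here. A summit was called supported by a replicate when a peak among that replicate's strongest 6127 had its summit within 200 bp. All 3 replicates supported 15 of the 20 summits of kirre, 2 replicates supported 2 and 1 replicate supported 3. The 15 are 75% of the 20 (95% exact Clopper-Pearson interval 50.9 to 91.3), and the share over all thresholded peaks was 69.3%. The thresholded list was itself made from all 3 replicates, so this support is not independent of it. In the whole replicate lists of 30000 peaks, all 20 summits had a partner in every replicate, where the background share was 97.2%. The replicate summits lay 0 to 171 bp from the thresholded ones, with a median of 8.5 bp over 60 values.

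**Figure D2:**
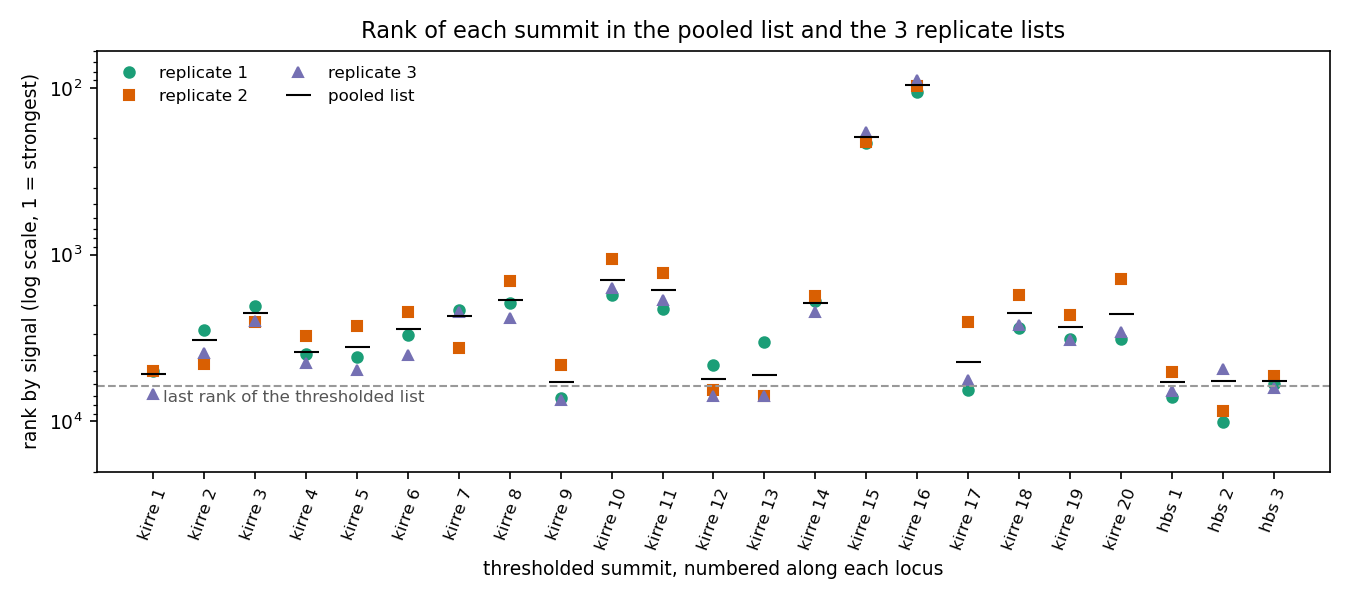
Rank by signal (y axis, log scale, 1 is the strongest) of the 20 thresholded summits of kirre and the 3 of hbs (x axis) in the pooled list (black bars) and in replicates 1 to 3 (coloured symbols). Summits 15 and 16 stand in the strongest 214 of every list, while symbols of several weaker kirre summits and of all 3 hbs summits fall below the dashed line at rank 6127.

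The 2 strongest peaks of the locus stood far above the others and lay close together, just past the 3′ end of rst. The signal is the authors' own value for each peak on a scale that the files do not define, and it serves here to order peaks of the same list. Peak 16 (X:2949023-2949745) had a pooled signal of 6012 and rank 96, with ranks of 106, 98 and 90 in replicates 1, 2 and 3. Peak 15 (X:2947411-2948096) had a pooled signal of 4094 and rank 197, with ranks of 214, 210 and 184. Both were strong in every replicate and kept the same order in all 3. The next strongest peak, number 10, had a pooled signal of 743 and rank 1412, with ranks of 1756, 1061 and 1585. The median over the 20 was 469, the weakest had 246, and 8 of the 20 were below the median of the whole thresholded list, 404.5. Only peaks 15 and 16 were among the strongest 613 thresholded peaks. Of those 613 peaks 50.1% had the consensus described below with up to 1 mismatch, and of the 2 at kirre 1 had it.

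These 2 peaks flank a small gene. Summit 15 lay 296 bp upstream of the start of CG3603 and 2661 bp past the 3′ end of rst, and summit 16 lay 240 bp past the end of CG3603 and 1039 bp past the 3′ end of rst. At the level of kirre, both are within an intron. As the printed sequences show, summit 16 carried the consensus with 1 mismatch followed by TAGG, centred 11.5 bp away. It was also the only summit of the 20 with a pair of CGATA motifs (read on either strand, no more than 40 bp apart) within 100 bp, a feature of 8.86% of all thresholded summits and of 2.04% of 201 bp tiles of the large arms. The start of rst, by contrast, was 24474 bp from summit 16, and its nearest thresholded summit of any kind was number 17, at 16444 bp.

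**Figure D3:**
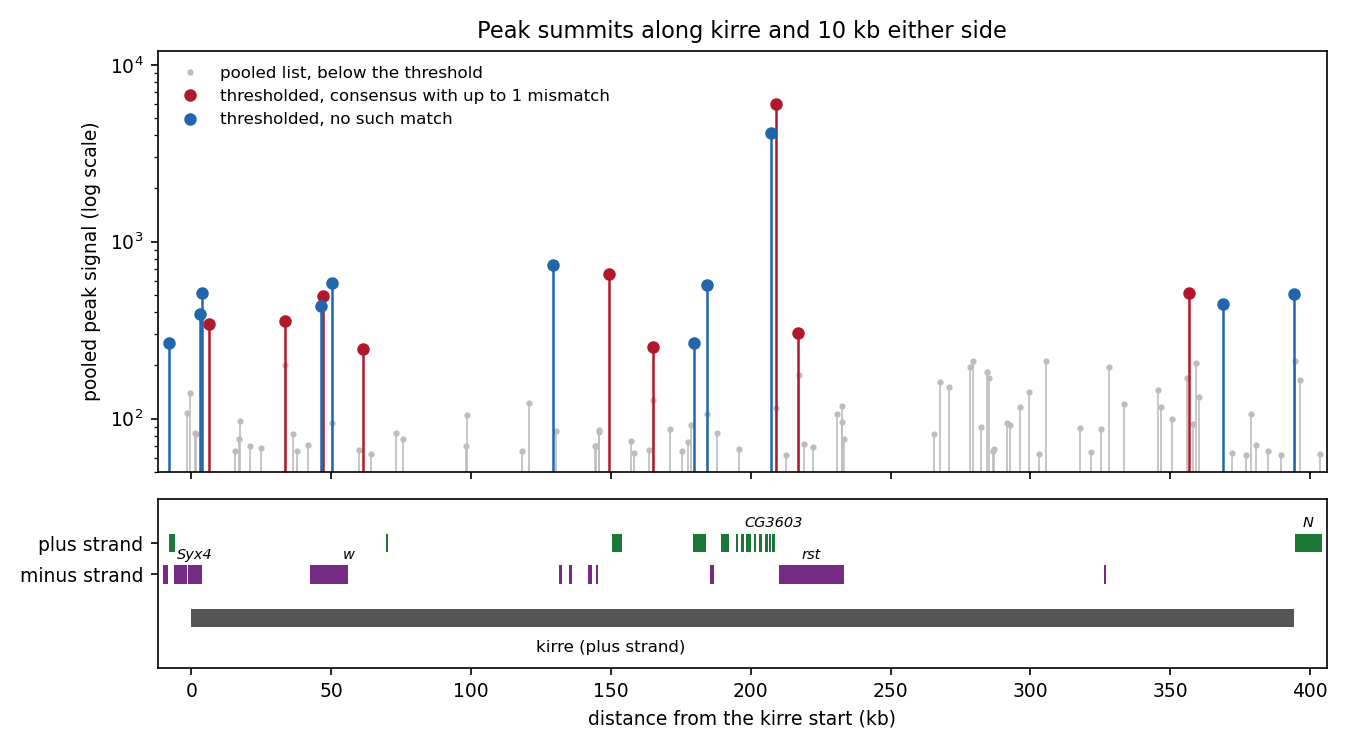
Upper panel, pooled signal (y axis, log scale) of each peak against distance from the kirre start (x axis, kb): large points are the 20 thresholded summits, red with and blue without the consensus at up to 1 mismatch, and small grey points are weaker pooled peaks. Lower panel, kirre and the protein-coding genes in its window by strand, showing the 2 tallest peaks at the 3′ end of rst and the stretch without a thresholded summit beyond it.

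None of the 20 thresholded summits was at a start of kirre itself. A summit was called a promoter summit when it lay between 1000 bp upstream and 100 bp downstream of an annotated transcript start. By that rule 7 of the 20 were promoter summits, where the background share was 50.9%, and the other 13 were intronic, where it was 29.3%. None was in a coding exon, another exon or between genes, where the background shares were 1.06%, 5.58% and 13.1%. All 7 belonged to promoters of other genes. No thresholded summit lay within 1 kb of any of the 7 transcript starts of kirre, and the nearest, number 18, was 2306 bp before the start of transcript kirre-RC. No thresholded summit fell in an exon of kirre. These statements hold for thresholded summits only, since weaker pooled peaks did lie near starts of kirre. A pooled peak with a signal of 206 lay 359.258 kb from the gene start. Transcripts kirre-RC and kirre-RD start at 359166 and 359198 bp. Another, with a signal of 140, lay at -0.467 kb from the gene start.

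The promoters concerned belong to genes at the ends of kirre and nested in it. Of 26 other protein-coding genes in the window, 21 of them nested, 8 had a start within 1 kb of a thresholded summit. At the 5′ side, summit 1 lay between the divergent starts of ttm50 and CG2712, 197 and 82 bp from them. Summits 2 and 3 were 334 and 174 bp from starts of Syx4, which encodes a syntaxin of vesicle fusion. Within kirre, summit 8 was 19 bp from the start of CG32795, whose body and promoter held 3 summits (6, 7 and 8). Summit 13 was 127 bp from a start of CG3588, and summit 15 was 296 bp upstream of CG3603. Summit 15 was also 644 bp downstream of the start of CG17959 and 158 bp past its 3′ end, so it was not a promoter summit of that gene. At the 3′ side, summit 20 lay 196 bp upstream of the start of N, which encodes the Notch receptor.

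The promoter summits of this locus covered a wide range of strengths, and 3 of the 7 (numbers 1, 2 and 13) had a signal below the median of the thresholded list. Their median pooled signal was 509, with a range of 267 to 4094, and that of the 13 intronic summits was 445, with a range of 246 to 6012. The ranges overlapped almost entirely. Summit 1, at ttm50 and CG2712, had pooled rank 5215 and ranks of 4974, 4985 and 6870 in the 3 replicates. Summit 20, at N, had pooled rank 2257 and ranks of 3205, 1405 and 2895. Summit 8, at CG32795, had pooled rank 1880 and ranks of 1946, 1447 and 2399. Summit 13, at CG3588, was less even, with pooled rank 5261 and ranks of 3361, 7050 and 7012, so that only replicate 1 placed it among its strongest 6127.

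The consensus was split by position within the locus. A match to the 12-base su(Hw) consensus with up to 1 mismatch, on either strand within 100 bp, was present at 9 of the 20 summits, where the background share was 21.6% of thresholded summits and 5.53% of 201 bp tiles of the large arms. All 9 were intronic: 9 of 13 intronic summits had it and 0 of 7 promoter summits did. Over the whole thresholded list the shares were 29.6% of intronic and 11.5% of promoter summits. The centres of the 9 matches lay 5.5 to 80.5 bp from the summit, with a median of 11.5 bp, and number 7 was the farthest. Exact matches were found at 2 summits, numbers 9 and 17, against 7.05% of thresholded summits and 0.381% of tiles.

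Shorter motifs showed the following counts. The core TGCATA was within 100 bp of 8 of the 20 summits, where the background shares were 23.5% of thresholded summits and 12.5% of tiles. It is part of the consensus, so it overlaps with the counts above. GAGAGAG was found at 0 of 20, against 4.16% of thresholded summits and 2.45% of tiles, and CAGGTAG at 0 of 20, against 0.93% and 1.09%.

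The exact consensus matches of the locus were mostly without a peak, and the letters after them differed. The kirre window held 9 exact matches (21.7 per Mb), and 2 of them, those of summits 9 and 17, had a thresholded summit within 100 bp. The share over the 2753 exact matches of the large arms was 16.6%. Both of these were followed after 1 base by TAGG, and none of the other 7 was. The extension was noticed in these sequences, so its count at kirre is no evidence for it. Each of the 7 is shown with 20 bases either side of the match and named by the distance of the match from the start of kirre.
kirre at 24377 bp, chrX:2764741-2764792, minus strand: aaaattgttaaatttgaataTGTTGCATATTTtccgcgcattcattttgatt
kirre at 36197 bp, chrX:2776561-2776612, plus strand: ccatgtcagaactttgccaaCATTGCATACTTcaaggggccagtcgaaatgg
kirre at 43782 bp, chrX:2784146-2784197, minus strand: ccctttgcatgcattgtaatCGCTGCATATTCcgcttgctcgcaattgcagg
kirre at 99190 bp, chrX:2839554-2839605, minus strand: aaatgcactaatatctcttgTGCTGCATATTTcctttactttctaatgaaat
kirre at 252822 bp, chrX:2993186-2993237, minus strand: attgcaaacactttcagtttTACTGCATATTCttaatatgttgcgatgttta
kirre at 287146 bp, chrX:3027510-3027561, minus strand: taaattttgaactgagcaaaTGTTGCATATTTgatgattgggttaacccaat
kirre at 375245 bp, chrX:3115609-3115660, minus strand: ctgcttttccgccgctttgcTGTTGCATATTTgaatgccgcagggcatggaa

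Only the match at 36197 bp had a pooled peak of any strength within 100 bp, at 25 bp, and that peak had rank 21468 of 30000. Over all exact matches of the large arms, 30.7% had a pooled peak within 100 bp. Outside the kirre window, which played no part in noticing the extension, 44 of 76 exact matches followed by TAGG after 1 base had a thresholded summit, 57.9% (95% exact Clopper-Pearson interval 46.0 to 69.1). Of the 2668 exact matches not followed by it, 410 had one, 15.4% (14.0 to 16.8), and the share was 15.8% when 116 matches in annotated transposable elements were left out. With a pooled peak of any strength the shares were 81.6% and 29.3%. The intervals cover counting error only, and the difference between the shares was not tested. Among all 1324 thresholded summits with up to 1 mismatch, 9.14% had the extension after the match, and at kirre it was 5 of 9. The 1324 include these 9, where the extension was noticed, so the 5 are no evidence of an excess at kirre.

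**Figure D4:**
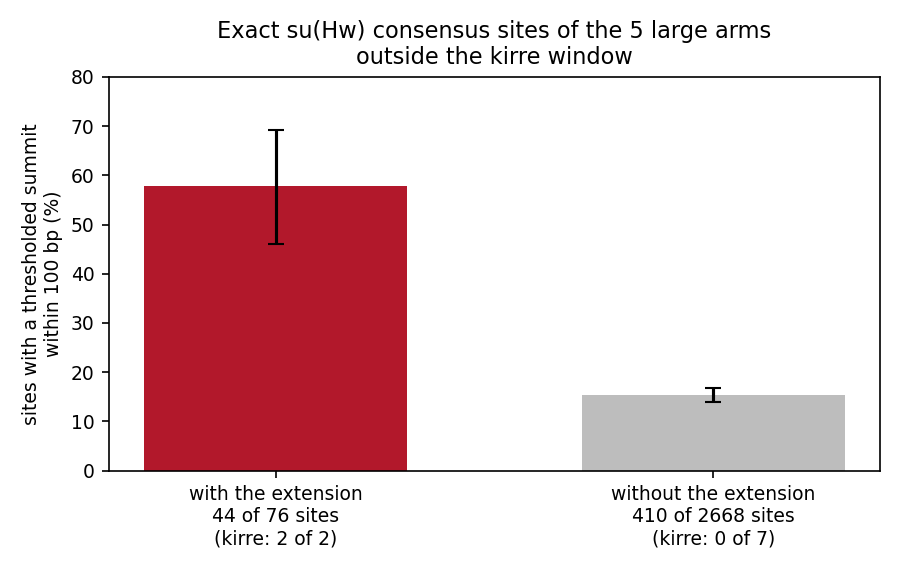
Percent of exact su(Hw) consensus matches outside the kirre window with a thresholded summit within 100 bp (y axis), for matches with and without TAGG after 1 base; bars are the shares, 57.9% of 76 and 15.4% of 2668, and lines are 95% exact Clopper-Pearson intervals. The counts inside the kirre window, 2 of 2 and 0 of 7, stand under each bar.

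Summits 9 and 12, the weakest of kirre, had the consensus with up to 1 mismatch. Summits 13 and 1, next in signal at 267 and 269, did not. Summit 9, with an exact match, had a pooled signal of 246 and rank 5816, near the last rank of the list, and ranks of 7280, 4596 and 7485. Replicate 2 alone placed it among its strongest 6127. Summit 17, also exact and the only thresholded summit within the body of rst, had a pooled signal of 305 and rank 4409, with ranks of 6468, 2531 and 5612. Summit 12, with 1 mismatch, had a pooled signal of 254 and rank 5592, with ranks of 4616, 6526 and 7001. Summit 11, also with 1 mismatch, was stronger at 657 and rank 1635, with ranks of 2106, 1292 and 1879. With summit 16 included, the 5 sites that carry the extension thus ran from the weakest to the strongest peak of the locus.

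Summits were unevenly spaced along kirre. The 19 gaps between neighbouring summits ran from 724 to 139854 bp with a median of 11990 bp, against 8117 bp over X and 7755 bp over the large arms. Gaps under 5 kb made up 6 of the 19 (31.6%), against 39.4% over X, and gaps over 50 kb made up 2 (10.5%), against 10.8%. In 4 stretches of equal length from the start of the gene, thresholded summits numbered 8, 5, 3 and 2, while pooled peaks of any strength numbered 26, 23, 24 and 24. The decline along the gene was therefore seen in the 18 thresholded summits within it and not in the whole pooled list. It was not a decline in strength, since the 2 strongest, numbers 15 and 16, lay in stretch 3 of the 4.

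The longest gap, 139854 bp between summits 17 and 18, runs from the body of rst past the start of transcript kirre-RG to 2306 bp before that of kirre-RC. It was the 23rd longest of the 1055 gaps on X and the 107th longest of 6096 on the large arms. It held 32 pooled peaks, the best with rank 7049 and a signal of 211, and 1 protein-coding gene, CG4116. Replicates 1, 2 and 3 had 37, 28 and 32 peaks there, with best ranks of 6233, 5260 and 6900, so only replicate 2 had a peak among its strongest 6127, and it had 1. Pooled peaks stood at 22.9 per 100 kb in this gap, close to the density of X as a whole, which was 241 per Mb. The next longest gap, 67906 bp between summits 9 and 10, was poorer in peaks of every strength: it held 7 pooled peaks, and 11, 3 and 5 in the replicates. Annotated transposable elements inside it came to 15843 bp, against 8506 bp in the longest gap. Whether reads map less well there was not tested.

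Below the threshold, kirre resembled the rest of the list in replicate support. The window held 104 pooled peaks (251 per Mb), against 241 per Mb on X and 225 per Mb on the large arms. Of the 84 that were not thresholded, 27 had a partner in all 3 whole replicate lists (32.1%), where the background share was 35.2%. The strongest of them had a signal of 212 and rank 6984, below the last thresholded peak of the genome, which had a signal of 236.4. It lay at X:3134879, close to thresholded summit 20 at X:3134674, so the 84 need not all be separate sites. Whether such neighbours shared a replicate partner was not tested.

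The gene rst (FBgn0003285, X:2950399-2973834, minus strand, 23436 bp) encodes the second founder cell receptor of the module. Its window held 12 pooled peaks and 3 thresholded summits, numbers 15, 16 and 17 above, of which 1 was in the gene. In replicates 1, 2 and 3 the window held 12, 14 and 12 peaks, of which 2, 4 and 3 were among the strongest 6127. All 3 replicates supported 2 of the 3 summits. None of the 9 weaker pooled peaks had a partner in all 3 whole lists. The strong signal credited to rst by distance was thus at its 3′ side, within an intron of kirre and beside CG3603, and with no flank or a flank of 1 kb the count was 1.

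The gene hbs (FBgn0287864, 2R:15011396-15042134, plus strand, 30739 bp), the partner receptor of fusion-competent cells, had 3 weak summits. They lay 6702 bp upstream of its start, 405 bp upstream of it and 23554 bp into the gene, in an intron. The summit at 405 bp was the only thresholded summit of the 4 genes in a member's own promoter. The 3 pooled signals were 246.9, 248.6 and 247.6, with ranks of 5787, 5737 and 5766, all close to the threshold at 236.4. The strongest hbs peak below the threshold had a signal of 166 and rank 9412.

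Replicates placed these 3 differently. The upstream summit had ranks of 7137, 5061 and 6532 in replicates 1, 2 and 3. The promoter summit had ranks of 10143, 8653 and 4861. The intronic summit had ranks of 5944, 5373 and 6276. No summit was among the strongest 6127 in all 3 replicates, where the background share was 69.3%: 1 had the support of 2 replicates and the others of 1. The promoter summit rested on replicate 3 alone. All 3 had partners in every whole list, at 0 to 87 bp with a median of 33 bp. The window held 11, 11 and 16 peaks in the replicates and 14 in the pooled list (276 per Mb, against 226 per Mb on chromosome arm 2R). None of the 3 summits carried the consensus with up to 1 mismatch, and 2 of 3 carried it with up to 2 mismatches, as did 58.3% of the thresholded list. The window held no exact match.

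The gene sns (FBgn0024189, 2R:8798489-8856091, plus strand, 57603 bp), which encodes the main receptor of fusion-competent myoblasts, had no thresholded summit. The same was true of 65 of the 324 protein-coding genes 40 to 80 kb long (20.1%). Its window held 9 pooled peaks (116 per Mb, against 226 on 2R), and 10, 12 and 9 in replicates 1, 2 and 3. The strongest pooled peak had a signal of 210 and rank 7082 and lay 61487 bp from the sns start, past the end of the gene. It had ranks of 7238 and 6883 in replicates 1 and 3 and no partner in replicate 2. The strongest inside the gene, 26595 bp from the start, had a signal of 194 and rank 7778, with ranks of 7165, 6174 and 9955 in the replicates. Replicate 2 thus placed it just outside its strongest 6127, and the others further down. Of the 9 pooled peaks 4 had partners in all 3 whole lists, where the share over all unthresholded pooled peaks was 35.2%. These are not 4 separate sites in the replicates: the peaks 26595 and 26797 bp from the start had the same partner in replicate 1 and in replicate 3. The window held no exact consensus match. The count of 0 holds for thresholded summits only.

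**Figure D5:**
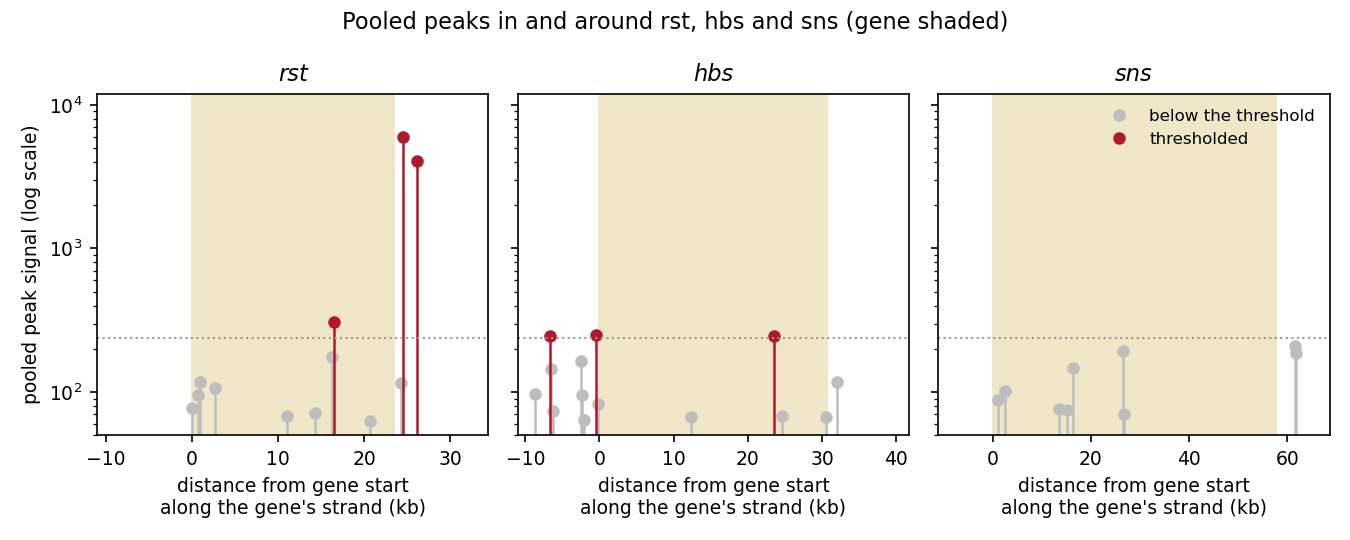
Pooled signal (y axis, log scale) of every pooled peak within 10 kb of rst, hbs and sns against distance from each gene's start along its own strand (x axis, kb), with the gene shaded and the signal of the last thresholded peak (236.4) as a dotted line. The 2 tall rst peaks lie past its 3′ end, the 3 hbs summits sit just above the line and all sns peaks lie below it.

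Other genes of myoblast fusion were read in the same way, with a thresholded summit in the gene or within 1 kb, where the share was 37.2% of all protein-coding genes and 64.7% of those of at least 10 kb. Of 21 such genes 13 had one (61.9%), and of the 7 of at least 10 kb 6 did. The strongest peak of the whole list lay in an intron of siz, which encodes an exchange factor for the Arf GTPase that acts below these receptors in the fusing cell. It had rank 1 in the pooled list and in each replicate, and a consensus match with 1 mismatch. The gene had 5 summits. rols, which encodes an adaptor of kirre in founder cells, had a peak of rank 153 outside its body, with ranks of 151, 160 and 150. dock, an adaptor of the SH2 and SH3 type, had one of rank 317, also intergenic. Rac2, a small GTPase of the actin pathway, had an exact match at a peak of rank 451 that lies in an intron of CG42458. The peaks of Hem (rank 1119) and Arp3 (rank 1661), both of the actin nucleation machinery, were at promoters shared with IleRS and msk. Mef2, the muscle transcription factor, held 7 summits, the best with rank 2969. None was found for Ced-12, blow, SCAR, Crk, Arf6 (also named Arf51F), lmd, sing and Pak.

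Of 10 genes listed as partners of the module or of the slit diaphragm, a mixed list, 7 had a summit, and of the 9 of at least 10 kb 7 did, where the share of genes of that length was 64.7%. The strongest was in an intron of pyd, which encodes the ZO-1 scaffold protein of cell junctions that binds these receptors. It had rank 9 in the pooled list and ranks of 9, 9 and 8. Cad74A, a cadherin gene, had a promoter peak of rank 310 with 1 mismatch. sli, the gene of the Robo ligand Slit, had an intronic peak of rank 1171, and Src64B, a kinase gene, a promoter peak of rank 1522. The best peak of cindr, an adaptor of these receptors at cell junctions, was in its promoter with rank 1700. That of Magi, a junction scaffold gene, had rank 2916 and lay at the promoters of Tmtc3 and mago.

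A list of other adhesion and guidance genes, mostly but not all of the immunoglobulin type, had a summit in 16 of 25 cases (64%). Of the 20 of at least 10 kb 12 did. The shares were 37.2% of all protein-coding genes and 64.7% of those of that length. The strongest was an intergenic peak beside Dscam1, a receptor gene of axon and dendrite self-avoidance, with an exact match, rank 117, and ranks of 112, 116 and 123. fra, a netrin receptor gene, had a peak of rank 441 with an exact match at the promoter of CG33775. Sema1a, a guidance receptor gene, had an intronic peak of rank 1284 with an exact match. Lac, a gene of septate junctions, had a promoter peak of rank 1354 that had no partner in replicate 1. ed, a gene of cell sorting in epithelia, held 9 summits, the best with rank 1496, and the peak of Ptp10D, with rank 1499, was in an exon of Vlet.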

How the data were processed

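ChIP-seq peak lists of 3 biological replicates were used as deposited, in dm6 coordinates (1-based here): 1 list per replicate, 1 pooled and 1 thresholded list. Each peak has a summit, a signal that the authors' peak caller gave it, on an undefined scale, and a −log10 q-value as deposited by the authors. Peaks were ranked by signal within a list, and the q-values were not used to rank. The caller and its version, the aligner and the IDR threshold were not given in the sources used here. The 5 dm3 lists were not used. The 3 replicate lists had 0 identical peaks in common and were counted as separate libraries.

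Summits of different lists within 200 bp of each other were matched. Classes were assigned in the order promoter, coding exon, other exon, intron, intergenic. The 12-base su(Hw) consensus, TGCATA, pairs of CGATA no more than 40 bp apart, GAGAGAG and CAGGTAG were searched on both strands within 100 bp of each summit. Backgrounds were all thresholded summits, 658239 tiles of 201 bp and all protein-coding genes. No test was run: the design has 1 group, and intervals are exact Clopper-Pearson intervals that cover counting error only. Matching and motif search were tested on simulated data.

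Genes, gene lists and motifs were chosen with earlier results of these data known, and the TAGG extension after its letters were seen. Named genes were the 4 members, genes in their windows that hold a thresholded summit or start within 1 kb of one, the 5 nearest to kirre in length, the 3 over 100 kb nearest in density, and up to 6 per list with the strongest summit. Named beyond this rule, with their values known, were Mef2, the myoblast fusion genes lacking a summit, the genes longer than kirre and the gene in its longest gap. So were genes whose intron, exon or promoter held the best peak of a listed gene. Genes lacking a summit in the other lists were not named. Python 3.11.15, numpy 2.4.6, pandas 2.3.3, scipy 1.17.1 and matplotlib 3.10.9 were used. Alternatives changed the flank, peak set, matching distance, promoter window, motif window and mismatches, merged near summits and left out each replicate.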

Additional observations from a re-analysis of the deposited data

How the results depend on the processing

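Of 67 values recomputed under alternatives, 54 stayed within 1.5 times the reported one and 13 moved further. With the strongest 3063 peaks only, kirre held 12 summits (29 per Mb) and 8 of the other adhesion and guidance genes had one. The whole pooled list gave 104 peaks at kirre. The consensus was at 2 kirre summits when exact and at 14 with up to 2 mismatches. With no flank, rst had 1 summit, hbs 1 and 8 myoblast fusion genes had one, and with 1 kb rst also had 1. Leaving out each replicate in turn, with support asked of both others, left 0 to 1 summits at hbs, 15 to 16 at kirre, 2 to 3 at rst and 0 at sns. hbs kept 1 without replicate 3, and 0 without replicate 1 or replicate 2. The remaining values at kirre were 18 to 20 over all flanks and 7 to 8 for promoter summits. Support in all 3 replicates was 15 at matching distances of 100 and 500 bp, and 20 when the whole replicate lists were used. No paired analysis was possible because all samples belong to 1 group. Read depth is unknown, so weak peaks at sns and hbs could not be set against a detection limit, and the thresholded list itself always came from all 3 replicates.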
